A study of Mus musculus with 11 samples.

Results

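Microglia of mice that had lost a Csf2 copy were compared with microglia of wild-type mice. The comparison took 6 of the 11 bulk RNA-sequencing libraries of the series, 3 from Csf2+/- mice (labelled Csf2_het) and 3 from wild-type mice (WT). It covered 13223 of the 14739 genes in the deposited table, which are all genes with a mean of at least 10 normalized counts over the 11 libraries; the other 1516 lay below that mean. All 6 libraries came from Tmem119+ cerebral microglia of C57BL/6 mice aged 21 months, and the genotype was the difference named in the labels. The series also holds 3 libraries from Csf1r+/- mice (Csf1r_het, 20, 24 and 21 months) and 2 from mice heterozygous for both genes (Dhet, Csf1r+/-; Csf2+/-, 21 and 24 months), which are used here for the estimate of the spread and for a second view of the lost Csf2 copy. The labels do not say whether replicates are separate animals or pools, so p-values measure the spread between these libraries. They do not name the Csf2 allele either.

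Csf2 encodes GM-CSF, a cytokine made by lymphocytes, endothelium, glia and other cells. Myeloid cells receive it through a ligand-binding chain encoded by Csf2ra and a signalling chain encoded by Csf2rb, which work through JAK2, STAT5 and Src-family kinases. GM-CSF drives the maturation of alveolar macrophages and the activation of monocytes and microglia, while resting microglia depend mainly on the CSF-1 receptor. The comparison asks what the loss of a Csf2 copy does on its own in aged microglia.

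The 6 libraries held 27280036 to 53081638 reads in genes, so that 1 read was worth 0.479 to 1.36 normalized counts. The sort marker Tmem119 stood at 17695, 5432 and 19084 normalized counts in WT and at 18805, 31939 and 22462 in Csf2_het, and WT replicate 2 was the lowest. That library also stood apart in the summed level of 52 ribosomal protein genes, at 1456176 against 228391 to 394482 in the other 5, and WT replicate 3 in that of 17 neutrophil markers, at 866216 against 60493 to 257935. Haemoglobin genes took 16.1% to 40.2% of the counts. Csf2 itself was not analysed here, so that the genotype was not checked from its own transcript.

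Genes that were lower in Csf2_het than in WT outnumbered those that were higher. For many of the gene lists below, the Csf1r_het libraries, which keep both Csf2 copies, lay on the same side of WT as Csf2_het, as given with the interaction. At a limma adjusted p under 0.05, which is what called, rose and fell mean below, 107 genes rose (0.809% of those tested) and 375 fell (2.84%). The called genes differed by 1.06 to 8.99 on the log2 scale, and 30 of those that rose and 227 of those that fell differed at least 4-fold. The lower end of that range is tied to the threshold, since with this spread smaller changes could seldom be called. In all 482 the 3 libraries of a genotype lay beyond the 3 of the other, which held for 25.2% of all genes tested. The median log2 fold change of all genes was -0.02. DESeq2 with its own size factors on reads recovered from the table called 398 higher and 834 lower. The number of calls moved by over 1.5 times when single libraries were left out: a refit called 26 higher and 146 lower without WT replicate 1, 17 and 156 without Csf2_het replicate 1, 23 and 205 without Csf2_het replicate 2, 26 and 193 without Csf2_het replicate 3 and 67 and 292 without Csf1r_het replicate 3, while 166 and 341 were called without WT replicate 2. Of these calls 25 and 146, 17 and 153, 23 and 200, 26 and 188, 67 and 291, and 74 and 270 were among the 107 and the 375. In all 11 fits that left a library out, 12 of the 107 and 124 of the 375 kept their call. Of the 123 called genes named in the text, 53 did.

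**Figure D1:**
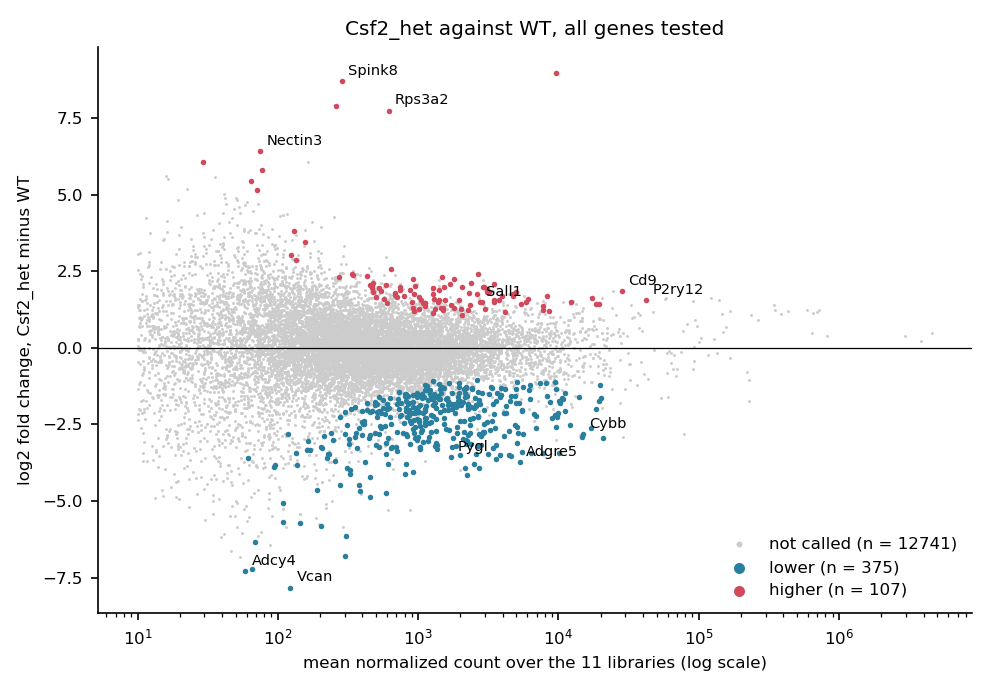
Each point is 1 of the 13223 genes tested, with its mean normalized count over the 11 libraries on a log axis and its log2 fold change, Csf2_het minus WT, on the other axis. Blue points are the 375 genes called lower, red points the 107 called higher and grey points the genes not called; the called genes start at a size of 1.06.

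The receptor of the lost cytokine fell in both of its chains. Monocyte markers fell too (11 of 13 classical and 8 of 12 non-classical ones, medians -3.02 and -2.82, as described below), and monocytes make the receptor as well as the signalling genes and transcription factors that follow; the part of monocyte-lineage RNA in these results was not tested. Csf2rb, the signalling chain, stood at 5995, 5546 and 3670 normalized counts in WT and at 1306, 1425 and 1338 in Csf2_het (3.74-fold lower, -1.87 on the log2 scale with SE 0.32, limma adjusted p = 0.00654). The GM-CSF-binding chain Csf2ra stood at 4333, 2585 and 2056 in WT and at 843, 1091 and 841 in Csf2_het (3.23-fold lower, -1.63, SE 0.33, limma adjusted p = 0.0157). All 3 Csf2_het libraries lay close together for both genes. They lay below every WT library, as in every gene that fell. Of the 7 CSF ligands and receptors tested these were the 2 that were called, and the median of the 7 was -0.72. Csf1r, the CSF-1 receptor, had a log2 fold change of -0.07 (SE 0.45), and the near copy Csf2rb2 had -0.72 (SE 0.55), with a split of reads between Csf2rb and Csf2rb2 that is uncertain.

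Some signalling genes downstream of cytokine receptors fell. Of 27 genes of JAK-STAT relays and their feedback 5 fell and none rose, with a median of -1.01. Ptpn6, the phosphatase SHP-1 that restrains cytokine receptors, stood at 14813, 9402 and 10898 normalized counts in WT and at 3623, 3442 and 3865 in Csf2_het (3.21-fold lower, -1.66, SE 0.27, limma adjusted p = 0.00501). The groups lay far apart, with little spread in Csf2_het. The tyrosine kinase gene Fes fell by 2.0 (SE 0.35), Stat3 by 1.60 (SE 0.32) and the survival gene Mcl1 by 1.39 (SE 0.33). The kinase and transcription factor closest to the GM-CSF receptor did not pass: Jak2 had -1.39 (limma adjusted p = 0.0551) and Stat5b -1.87 (limma adjusted p = 0.0887). The Socs and Pim genes and Cish, some of which STAT5 is known to induce, lay on both sides of 0 without passing. Socs2 had 1.98 (limma adjusted p = 0.191), Cish 1.15 (limma adjusted p = 0.575) and Socs1 0.64 (limma adjusted p = 0.793). Below 0 were Pim1 at -2.60 (limma adjusted p = 0.0767), Socs3 at -2.26 (limma adjusted p = 0.113) and Pim2 at -0.59 (limma adjusted p = 0.705). These genes were picked with their values in view. The summed level of the 27 genes was 67259 to 91316 in WT and 34338 to 35115 in Csf2_het, so that the groups did not overlap. The same held for the sums of many other lists here, and for 25.2% of all single genes tested. Ptpn6 and Fes kept their call in all 11 fits that left a library out, whereas Stat3 and Mcl1 did not.

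**Figure D2:**
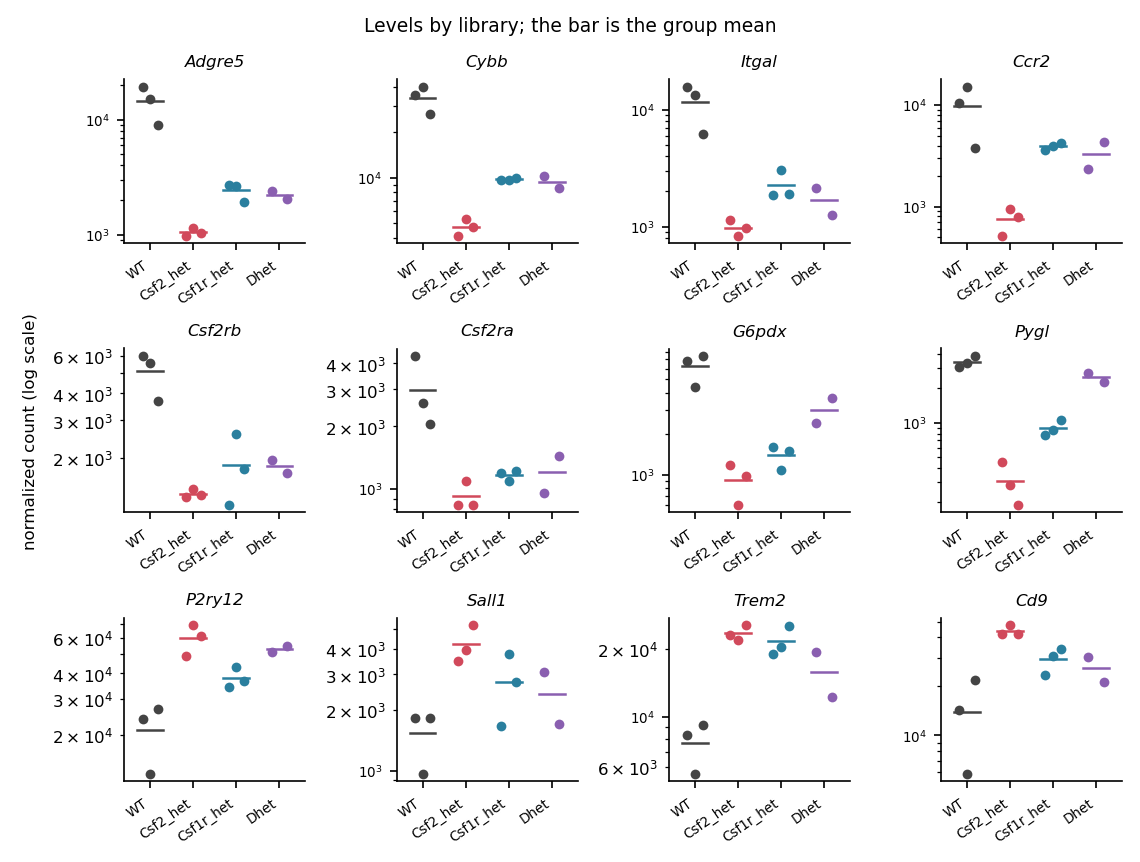
Normalized counts (log axis) of 12 genes by library; each point is a library and each bar the mean of its genotype. The Csf2_het points lie below all WT points in the first 8 genes and higher than all of them in the last 4, P2ry12, Sall1, Trem2 and Cd9.

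Among 37 transcription factors of myeloid cells 7 fell and 1 rose, with a median of -0.78. The genes that fell were Klf2, a factor of quiescence and trafficking (9.84-fold lower, log2 fold change -3.16, SE 0.40), Nr4a1, an orphan nuclear receptor on which non-classical monocytes depend (-2.94, SE 0.57), the leucine zipper factors Nfe2 (-2.69, SE 0.31) and Nfil3 (-2.55, SE 0.46), the interferon regulator Irf7 (-2.53, SE 0.60), Nfkb2 (-2.08, SE 0.50) and Spi1. Spi1 encodes PU.1, the lineage factor of macrophages and microglia, and went from 14109, 9407 and 9787 normalized counts to 4776, 4754 and 5214 (2.26-fold lower, -1.15, SE 0.28, limma adjusted p = 0.0391). The gene that rose was Sall1, the factor that marks microglia among macrophages, described with the microglial genes below. Klf2, Nfe2 and Nfil3 kept their call in all 11 fits that left a library out; Spi1 kept it in 2. Klf2 and Nr4a1 are also early genes of stress and tissue dissociation: of 24 such genes 4 fell (median -0.88), with a summed level of 47457 to 76900 in WT and 20767 to 35652 in Csf2_het, and the part of cell handling was not tested.

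Monocyte markers were much lower in Csf2_het. Of 13 classical monocyte markers 11 fell (median -3.02), and of 12 non-classical monocyte markers 8 fell (median -2.82). Their summed levels were 100060 to 272278 and 58703 to 115531 in WT, and 15734 to 24761 and 13070 to 21960 in Csf2_het. Neither pair of ranges overlapped, and a lower number of monocyte-lineage cells in the sort cannot be told apart from less RNA of these genes per cell. Ly6c2, the classical monocyte antigen, held 23042, 36798 and 12958 normalized counts in WT and 2149, 3985 and 3023 in Csf2_het (7.95-fold lower, -2.91, SE 0.42, limma adjusted p = 0.00213). Treml4, a receptor of non-classical monocytes, held 9005, 4756 and 7608 against 918, 1033 and 1164 (6.86-fold lower, -2.73, SE 0.33, limma adjusted p = 0.000775). Reads may be split between Ly6c2 and its near copy Ly6c1, which did not pass. Hp, haptoglobin, fell by 3.44 (SE 0.50), F13a1, a coagulation factor chain, had a log2 fold change of -3.50 (SE 0.58), and Plac8 -2.63 (SE 0.62). Vcan, the proteoglycan versican, was the marker near 0 in Csf2_het, as given below.

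The monocyte lists bear on the groups that follow as on those above, because several of their genes are also made by monocytes. Of the other cell types, 0 of 17 neutrophil markers (median -1.35, but -0.26 without WT replicate 3), 0 of 13 B cell markers (median -1.78, all 13 below 0) and 0 of 13 T and NK cell markers (median -1.04, and -0.64 without WT replicate 2) were called. Their summed levels overlapped between the genotypes. Of the border macrophage markers 1 of 10 fell, Clec12a, a lectin that other myeloid cells also carry.

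Several genes of adhesion and of entry into tissue fell. Of 23 integrins and adhesion receptors 8 fell and 1, Nectin3, rose (median -1.10). Itgal, the alpha chain of LFA-1, stood at 15712, 13417 and 6233 normalized counts in WT and at 1130, 833 and 967 in Csf2_het (12.1-fold lower, -3.50, SE 0.38, limma adjusted p = 0.000481). Its partner Itgb2 fell by 1.73 (SE 0.31), and so did Itgb7 (-3.93, SE 0.47), Itga4, the alpha chain of VLA-4 (-2.59, SE 0.39), and Itgb1 (-1.33, SE 0.31). Cd44, the hyaluronan receptor, fell by 2.75 (SE 0.33), and Cd47 by 1.10 (SE 0.26).

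The gene with the lowest p among all tested was Adgre5, which encodes the adhesion receptor CD97 of leukocytes. Adgre5 stood at 19359, 15116 and 9063 normalized counts in WT and at 974, 1131 and 1021 in Csf2_het (13.9-fold lower, -3.73, SE 0.31, limma adjusted p = 0.000157). Its relative Adgre4, which marks non-classical monocytes, went from 13251, 9214 and 8136 to 802, 1604 and 1974 (-2.87, SE 0.39). Adgre1, which encodes the macrophage antigen F4/80, overlapped between the genotypes and did not pass (-0.50, SE 0.34, limma adjusted p = 0.511). Cytip, a scaffold that loosens integrin contacts, held 9650, 11528 and 7342 in WT and 668, 1145 and 725 in Csf2_het (11.2-fold lower, -3.51, SE 0.29, limma adjusted p = 0.000157). Adgre5, Adgre1 and Cytip were picked with their values in view.

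Some receptors for chemoattractants fell. Of 19 chemokine and chemoattractant receptors 5 fell, while the median was -0.20, which turned positive without Csf2_het replicate 3 (0.26) and also without WT replicate 1. Ccr2, which brings monocytes to sites of CCL2, went from 10496, 15123 and 3765 normalized counts to 515, 950 and 790 (13-fold lower, -3.53, SE 0.45). The formyl peptide receptors Fpr1 and Fpr2 had -2.79 (SE 0.62) and -2.21 (SE 0.47), the leukotriene B4 receptor Ltb4r1 -2.60 (SE 0.58) and Cxcr4 -2.09 (SE 0.53). Among the sphingosine-1-phosphate receptors, picked with their values in view, S1pr5 had -2.76 (SE 0.37) and S1pr4 -3.43 (SE 0.67), both called. Of 19 chemokine ligands 1 rose and none fell, with a median of 1.06 that was 0.62 without WT replicate 1. The ligand that rose was Ccl3, at 1456, 1057 and 1152 in WT and 4735, 4178 and 5578 in Csf2_het (3.95-fold higher, 1.99, SE 0.42, limma adjusted p = 0.0218). Its neighbour Ccl4 had 1.87 (SE 0.54) and did not pass (limma adjusted p = 0.0792).

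Immunoglobulin-like receptors that set the activation of myeloid cells were a further group. Of 27 paired immunoglobulin-like and SLAM receptors 11 fell and 1, Siglech, rose (median -1.68). Pirb, an inhibitory receptor for MHC class I, stood at 8367, 5874 and 5605 normalized counts in WT and at 510, 651 and 631 in Csf2_het (11.1-fold lower, -3.45, SE 0.33, limma adjusted p = 0.000278). Its activating relative Pira2 held 1548, 1190 and 1201 against 72.0, 18.2 and 81.8 (22.9-fold lower, -4.74, SE 0.57, limma adjusted p = 0.000775). Reads may be split between Pira2 and Pirb, which are close copies, and the same holds for the Sirpb1 genes, which also fell. Trem1, an amplifier of inflammation, fell by 3.91 (SE 0.99), and its call was lost in 6 of the 11 fits that left a library out. Tarm1, an activating receptor of myeloid cells, held 159, 216 and 367 in WT and 2.09, 3.83 and 5.45 in Csf2_het (65.4-fold lower, -5.68, SE 0.89, limma adjusted p = 0.00419). The paired receptors Pilra (-2.02), Pilrb1 (-2.29) and Pilrb2 (-2.75), picked with their values in view, fell too.

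Other recognition receptors were examined in 4 lists. Of 17 C-type lectins 5 fell, among them Clec4a1 (log2 fold change -3.21, SE 0.45) and Clec12a (-2.26, SE 0.32), with a median of -1.22 that was -0.74 without Csf2_het replicate 3. Fcgr4, the activating receptor for IgG2 on monocytes, was the 1 of 11 Fc receptors that fell, from 7994, 9067 and 9039 normalized counts to 1810, 2042 and 2056 (4.42-fold lower, -2.14, SE 0.31, limma adjusted p = 0.00213). The median of the Fc receptors was -0.58, and -1.05 without Csf2_het replicate 3. Of 23 Toll-like receptors and adaptors 3 fell: Irak4 (-1.98, SE 0.38), the inhibitor Irak3 (-3.26, SE 0.74) and Tlr8, a sensor of single-stranded RNA (654, 766 and 407 in WT and 0, 60.3 and 17.7 in Csf2_het). Their median was -0.21, and -0.06 without Csf2_het replicate 1. In the Ms4a family, a cluster of membrane genes on chromosome 19, 3 of 11 fell (median -2.16).

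Some genes of the oxidative burst fell. Of 9 genes of the phagocyte NADPH oxidase 4 fell and none rose (median -1.0), and their summed level was 102392 to 153871 in WT and 48329 to 54033 in Csf2_het. Cybb, the catalytic subunit, stood at 34969, 39791 and 26533 normalized counts in WT and at 4136, 5317 and 4712 in Csf2_het (7.15-fold lower, -2.83, SE 0.28, limma adjusted p = 0.000286). The cytosolic subunit gene Ncf4 fell by 1.82 (SE 0.35), and the GTPase gene Rac2 had -1.65 (SE 0.30) and was called. Cyba, the membrane partner of Cybb, had -0.65 (SE 0.51) and overlapped between the genotypes, with WT replicate 2 at 68409 and the other WT libraries at 17075 and 14486.

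The pentose phosphate pathway regenerates the NADPH that the oxidase and glutathione reductase use, and glycogen is a store of its glucose phosphate. Both families were picked with their values in view. Of 7 genes of the pentose phosphate pathway all 7 lay below 0 and 3 fell. G6pdx, its entry enzyme, held 6815, 4421 and 7425 normalized counts in WT and 1182, 605 and 976 in Csf2_het (6.76-fold lower, -2.77, SE 0.34, limma adjusted p = 0.000876). Tkt, transketolase, fell by 1.59 (SE 0.29) and Taldo1, transaldolase, by 1.35 (SE 0.30), while Pgd did not pass (-1.0, limma adjusted p = 0.094). Pygl, the glycogen phosphorylase of liver and leukocytes, held 3080, 3362 and 3867 in WT and 449, 279 and 188 in Csf2_het (11.3-fold lower, -3.57, SE 0.34, limma adjusted p = 0.000278). Gyg, glycogenin, which primes glycogen chains, fell by 2.28 (SE 0.34). The other 8 of the 10 glycogen genes were not called, with the family's median at -0.26.

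Glutathione genes moved in both directions. Of 28 glutathione and antioxidant enzymes 2 fell and 2 rose. Gsr, glutathione reductase, stood at 14683, 7857 and 11630 normalized counts in WT and at 1840, 1844 and 1206 in Csf2_het (6.99-fold lower, -2.78, SE 0.36, limma adjusted p = 0.00124). Mgst1, a microsomal glutathione transferase, fell by 1.47 (SE 0.28). The cytosolic transferase Gsta4, which acts on products of lipid peroxidation, went the other way, from 798, 354 and 1055 to 2841, 2907 and 2194 (3.6-fold higher, 1.97, SE 0.43, limma adjusted p = 0.025). Gstm5 rose by 1.77 (SE 0.39). In each of these 4 genes the genotypes did not overlap, which held for every called gene.

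Some genes of the actin cytoskeleton fell. Of 34 genes of the actin cytoskeleton and its regulation 10 fell and none rose (median -1.23), and of 19 motor and crosslinking proteins of actin, picked with their values in view, 11 fell (median -1.65). Flna, filamin A, which ties actin to integrins, held 18576, 12472 and 9750 normalized counts in WT and 1919, 1977 and 1710 in Csf2_het (7.28-fold lower, -2.81, SE 0.28, limma adjusted p = 0.000286). Anxa2, a membrane-binding annexin, went from 18431, 11222 and 12276 to 1319, 1456 and 1018 (11.1-fold lower, -3.45, SE 0.36). Vav3, an guanine nucleotide exchange factor, held 807, 1161 and 929 against 42.8, 81.4 and 36.8 (18-fold lower, -4.22, SE 0.47, limma adjusted p = 0.000626). Smaller falls were those of Lcp1, leukocyte plastin (-1.81, SE 0.26), Lsp1 (-2.21, SE 0.29), Coro1a, coronin (-1.75, SE 0.38), and Arhgdib (-1.22, SE 0.31). Vim, vimentin, had -3.39 (SE 0.54) and the myosin gene Myo1g -3.19 (SE 0.37).

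Some interferon-induced genes fell. Of 29 interferon response genes 9 fell and none rose (median -1.42), and of 18 guanylate-binding and Schlafen genes 3 fell (median -1.44). Slfn1, a Schlafen gene that slows growth, stood at 1011, 1228 and 1069 normalized counts in WT and at 161, 63.2 and 142 in Csf2_het (9.05-fold lower, -3.27, SE 0.42, limma adjusted p = 0.00115). Slfn2 fell by 2.53 (SE 0.43). Ifitm2, which restricts viral entry, held 33817, 111205 and 15703 in WT and 4239, 4708 and 6597 in Csf2_het (10.3-fold lower, -2.94, SE 0.54, limma adjusted p = 0.00964), with WT replicate 2 far above the other WT libraries. All 19 genes of the MHC class I pathway had a log2 fold change below 0 (median -1.13), but 1 of them was called. H2-Ab1, the beta chain of the MHC class II molecule I-A, was among the 2 of 16 MHC class II genes that fell (-1.64, SE 0.38, limma adjusted p = 0.0337).

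GM-CSF maintains a lipid-handling programme in alveolar macrophages, and its genes were examined as a list of 19. In this list 3 genes fell and 2 rose (median -0.95). Pparg, the nuclear receptor that GM-CSF induces there, went from 1219, 815 and 685 normalized counts to 136, 120 and 294 (4.95-fold lower, -2.38, SE 0.51, limma adjusted p = 0.0229). Plin2, the coat of lipid droplets, held 4347, 3800 and 5722 in WT and 899, 974 and 751 in Csf2_het (5.29-fold lower, -2.39, SE 0.29, limma adjusted p = 0.000775). Chil3, a chitinase-like protein, fell by 1.99 (SE 0.47). Mgll, the lipase of monoacylglycerols and endocannabinoids, rose by 1.37 (SE 0.29), as did the tetraspanin gene Cd9 described next. The list's members are markers of lung macrophages and monocytes as well, and Chil3 is also a classical monocyte marker.

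Some genes of resting microglia rose. Of 24 homeostatic genes 4 rose and none fell, 23 lay above 0 and the median was 1.13. Their summed level was 717933 to 791256 in WT and 1408265 to 1902141 in Csf2_het. A higher share of microglia in the sort cannot be told apart from more RNA of these genes per cell. P2ry12, a sensor of ADP, stood at 23927, 12808 and 26704 normalized counts in WT and at 48810, 69352 and 60852 in Csf2_het (2.82-fold higher, 1.55, SE 0.39, limma adjusted p = 0.0464). Sall1 held 1814, 965 and 1813 against 3488, 3941 and 5250 (2.76-fold higher, 1.5, SE 0.38, limma adjusted p = 0.049). The lectin gene Siglech rose by 1.43 (SE 0.34) and Scoc, a coiled-coil protein of the Golgi, by 1.69 (SE 0.35). The lowest WT value of P2ry12, Sall1, Siglech and Scoc was that of WT replicate 2, and none of the 4 kept its call in all 11 fits that left a library out.

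Genes that mark microglia near plaques and damage were mixed. Of 23 disease-associated genes 5 rose and 1 fell, with a median of 0.48 that was 0.27 without WT replicate 2. Trem2, a lipid receptor, stood at 8299, 5582 and 9161 normalized counts in WT and at 23063, 21832 and 25514 in Csf2_het (3.06-fold higher, 1.64, SE 0.32, limma adjusted p = 0.0133). Cd9, a tetraspanin, held 14274, 5814 and 21978 against 42198, 47655 and 42091 (3.14-fold higher, 1.85, SE 0.45), and the late endosomal tetraspanin Cd63 rose by 1.43 (SE 0.33). Spp1, osteopontin, rose by 2.08 (SE 0.46) and Ch25h, which makes 25-hydroxycholesterol, by 2.42 (SE 0.49). Lgals3, galectin-3, fell by 2.28 (SE 0.35). In the tetraspanin family, chosen after its values were seen, 4 of 24 genes rose and none fell (median 0.78): Cd9, Cd63, Tspan4 (1.79, SE 0.44) and Upk1b (2.42, SE 0.57).

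A few nuclear genes of mitochondria rose. Apoo, a subunit of the complex that shapes the inner membrane's cristae, held 1137, 836 and 1649 normalized counts in WT and 4586, 4920 and 5152 in Csf2_het (4.05-fold higher, 2.07, SE 0.29, limma adjusted p = 0.00188). Chchd6, of the same complex, rose by 2.01 (SE 0.42). Fdx1, a ferredoxin of steroid and iron-sulphur chemistry, held 277, 373 and 389 against 1135, 1349 and 1338 (3.68-fold higher, 1.89, SE 0.32, limma adjusted p = 0.00596). Mpc1, a subunit of the pyruvate carrier, rose by 1.22 (SE 0.28) and Chchd10, of the intermembrane space, by 1.5 (SE 0.32). The 44 oxidative phosphorylation genes held no call, and their median of 0.36 was 0.07 when WT replicate 3 was left out and 0.81 when WT replicate 2 was. Apoo, Fdx1 and Chchd6 were picked with their values in view.

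Some of the X-linked Bex and Tceal genes, a clustered family of small proteins expressed in brain, also rose. Of 11 tested members 10 lay above 0 and 5 rose: Bex2 (1.60, SE 0.41), Bex3 (1.55, SE 0.28), Tceal1 (2.05, SE 0.52), Tceal8 (1.55, SE 0.37) and Tceal9 (1.29, SE 0.26). Bex3 stood at 482, 587 and 601 normalized counts in WT and at 1554, 1361 and 2029 in Csf2_het (limma adjusted p = 0.00841). The family was chosen after its values were seen. Chromosome X as a whole held 11 genes that rose among 398 tested (2.76%, against 0.809% over all chromosomes), and these 5 are among the 11. Neuron markers, which such genes can accompany, had no call among 6 and a median of 1.28, with summed levels of 415 to 736 in WT and 647 to 2074 in Csf2_het that overlapped; their part was not tested.

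A few genes of motile cilia rose as well. Of 14 choroid plexus and cilium genes all 14 lay above 0 and 3 rose (median 1.35, but 0.63 without WT replicate 2), and their summed level was 440339 to 698992 in WT and 937573 to 1222653 in Csf2_het. Dynlrb2, a light chain of cytoplasmic and ciliary dynein, held 202, 442 and 273 normalized counts in WT and 1156, 880 and 1202 in Csf2_het (3.53-fold higher, 1.88, SE 0.40, limma adjusted p = 0.0229). Pifo, a gene of cilium disassembly, rose by 2.57 (SE 0.53) and Meig1 by 2.86 (SE 0.66). The defining choroid plexus genes Ttr (1.23, SE 1.08), Folr1 and Kl did not pass. Astrocyte markers had no call among 9 and a median of 1.28, which was 0.61 without WT replicate 2. The part of RNA from other cells of the brain in these results was not tested.

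**Figure D3:**
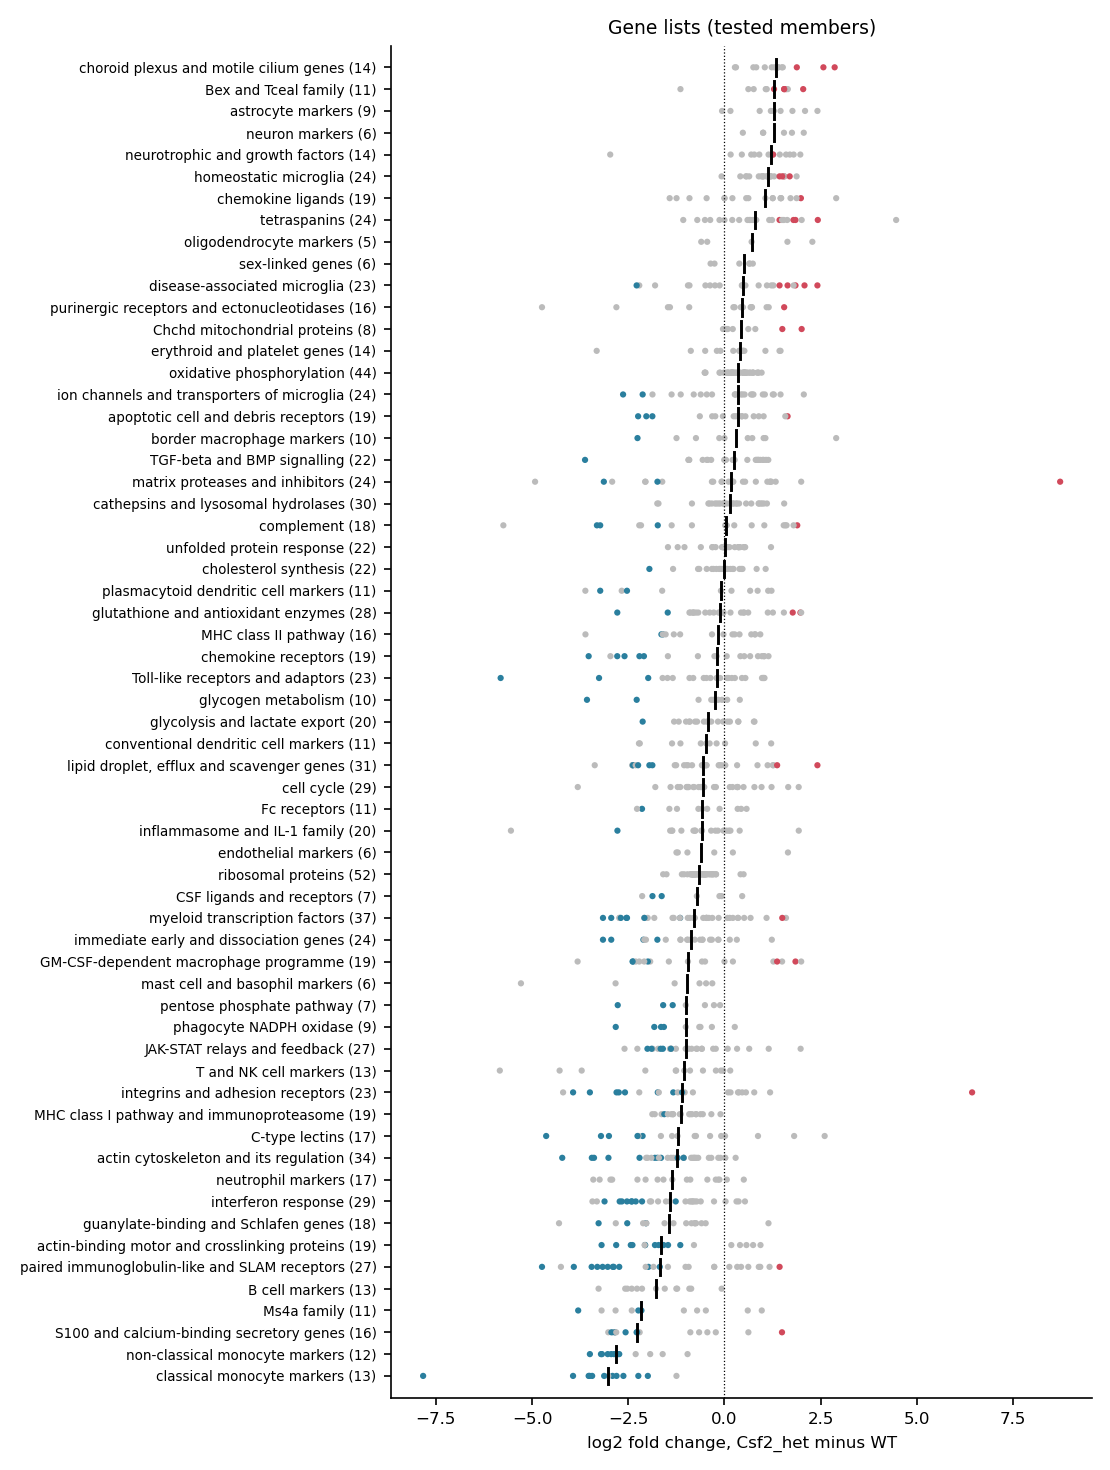
Log2 fold change, Csf2_het minus WT, of the tested members of each gene list (number in brackets); each point is a gene, grey where not called, blue where it fell and red where it rose, and each black bar is the list's median. Lists with at least 5 tested members are shown. The monocyte lists have the lowest medians, at -3.02 and -2.82, and the choroid plexus and cilium list the highest, at 1.35.

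Some genes were present in one genotype and at or near 0 in the other. Adcy4, an adenylyl cyclase, stood at 263, 301 and 48.2 normalized counts in WT and had no read in the 3 Csf2_het libraries, which makes it at least 257-fold higher in WT, with a floor of 3 reads over the group (limma adjusted p = 0.00713). Spag11b, a defensin-like gene, held 145, 472 and 48.2 in WT and no read in Csf2_het (at least 279-fold higher in WT, limma adjusted p = 0.0252). Vcan held 395, 627 and 91.8 in WT and 2 reads in all of Csf2_het. In the other direction Spink8, a protease inhibitor gene, held 0, 0 and 5.74 in WT and 482, 1095 and 958 in Csf2_het (limma adjusted p = 0.00944), and Nectin3, an adhesion molecule of synapses, held 3.21, 0 and 0 against 88.7, 86.2 and 347 (limma adjusted p = 0.0218). Hmgcll1, a lyase of ketone synthesis, rose by 5.82 (SE 1.19). Mmp11, a matrix protease gene without a read in WT, held 114, 107 and 23.2 in Csf2_het (at least 93.6-fold higher), but it overlaps the far more abundant Chchd10 on the other strand, and whether the libraries keep the strand is unknown here. Of the 123 called genes named in the text 23 overlap another tested gene in the annotation, 19 of them one on the opposite strand, and their values share that limit.

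Further genes fell to a few counts. Dram1, a lysosomal membrane gene of autophagy, held 839, 587 and 519 normalized counts in WT and 0, 15.3 and 43.6 in Csf2_het (33.0-fold lower, -6.14, SE 1.11, limma adjusted p = 0.00942). Slco3a1, an organic anion transporter, held 241, 355 and 95.2 against 2.09, 17.7 and 0 (-5.71, SE 1.03). Map4k1, a kinase that restrains immune signalling, went from 1305, 945 and 475 to 28.2, 19.6 and 57.2 (25.9-fold lower, -4.68, SE 0.56, limma adjusted p = 0.000775). Saa3, an acute-phase amyloid gene, had -4.86 (SE 1.02), Pxylp1 -5.07 (SE 1.01) and Fam109b -6.33 (SE 1.49), and all 3 were called. Of these 6 genes, Map4k1 kept its call in all 11 fits that left a library out.

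Near copies of the ribosomal protein gene Rps3a1 gave the clearest presence and absence. Rps3a2 (chr14:88123017-88123808) is identical to the Rps3a1 transcript at 788 of 792 bases and Rps3a3 (chr13:108670603-108671397) at 786 of 795. A stretch of 60 coding bases from each transcript (GENCODE vM21, mm10) shows how little separates them; capitals mark the 3 positions at which the copies differ.
Rps3a1: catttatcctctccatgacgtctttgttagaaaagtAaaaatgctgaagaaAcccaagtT
Rps3a2: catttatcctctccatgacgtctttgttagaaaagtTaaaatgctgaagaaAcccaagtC
Rps3a3: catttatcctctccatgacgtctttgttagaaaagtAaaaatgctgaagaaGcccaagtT
Rps3a2 stood at 8.99, 8.74 and 1.15 normalized counts in WT and at 1292, 1094 and 1463 in Csf2_het (204-fold higher, log2 fold change 7.75, SE 0.86, limma adjusted p = 0.000595). Rps3a3 held 1.93, 3.88 and 0 against 538, 442 and 828 (7.91, SE 1.04, limma adjusted p = 0.00127). Rps3a1 lay the other way, at 11020, 21991 and 6856 in WT and 3334, 3410 and 5321 in Csf2_het, and did not pass (-1.59, SE 0.43, limma adjusted p = 0.0624). Both copies were also near 0 in the 3 Csf1r_het libraries, at 0 to 9.48, and high in the 2 Dhet libraries, where Rps3a2 held 1535 and 1378 and Rps3a3 576 and 477. How reads are split among sequences this alike is uncertain.

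**Figure D4:**
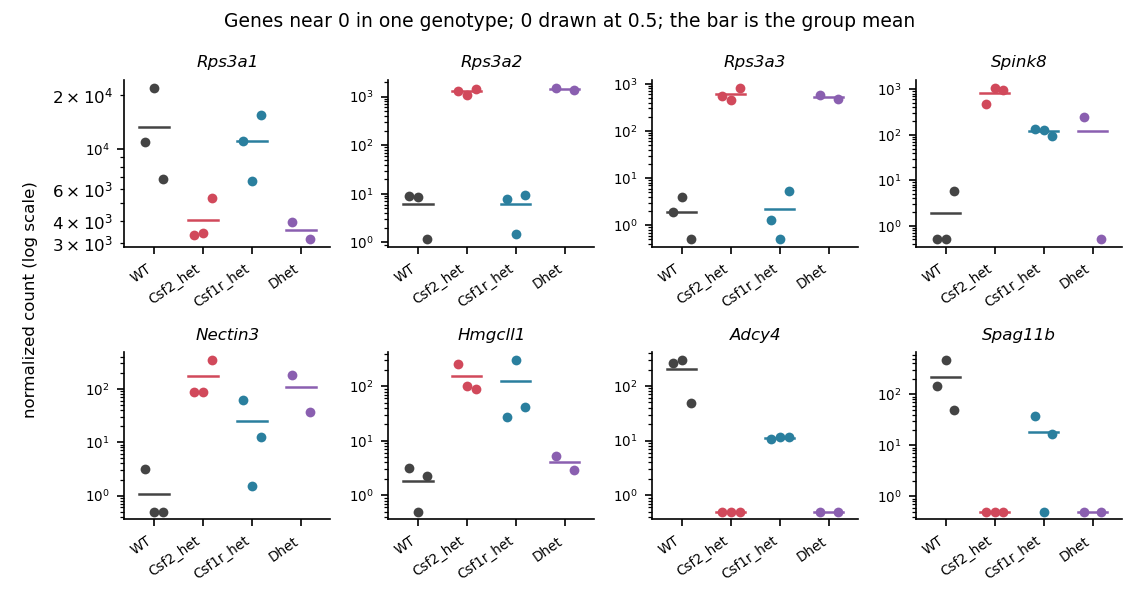
Normalized counts (log axis, 0 drawn at 0.5) of 8 genes by library in the 4 genotypes; each point is a library and each bar a group mean. Rps3a2 and Rps3a3 are high in the 5 libraries with a lost Csf2 copy and at most 9.48 in the 6 others, while Adcy4 and Spag11b have no read in those 5. All 6 others hold reads of Adcy4, but not all of them hold reads of Spag11b.

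The promoters of the called genes were read for short motifs. RefSeq promoters (GRCm38.p6) that matched a tested gene by symbol and lay within 1000 bases of its start were found for 8598 genes, among them 258 that fell and 72 that rose, and the 250 bases before the start were searched on both strands for 10 motifs. The core AGGAAGT, the form of the ETS site that PU.1 prefers, was present in 17.8% of the promoters of genes that fell, in 9.72% of those that rose and in 8.19% of all. The form CCGGAAGT, preferred by other ETS factors, was present in 1.16%, 1.39% and 6.40%. STAT sites (TTCNNNGAA) were present in 9.30%, 9.72% and 5.92%, and interferon-stimulated elements in 6.98%, 4.17% and 2.93%. The C/EBP form TTNCNNAA was present in 37.2%, 43.1% and 28.9%, the AP-1 form TGANTCA in 6.98%, 9.72% and 4.16%, and TATAAA in 10.1%, 9.72% and 6.25%. The E-box CACGTG was present in 5.43%, 4.17% and 8.71%, the GC box GGGCGG in 51.6%, 40.3% and 58.9%, and CCAAT in 31.4%, 37.5% and 37.0%. Several of the 10 thus differed between called genes and all genes, and none of the differences was tested. The promoters of called genes were also poorer in CpG, with a median of 10 CpG among genes that fell, 8.5 among genes that rose and 16 in all. Windows of 80 bases from 5 genes that fell show the first motif, with AGGAAGT, or ACTTCCT where it is read on the other strand, in capitals.
Pira2, chr7:3845156-3845235, reverse strand: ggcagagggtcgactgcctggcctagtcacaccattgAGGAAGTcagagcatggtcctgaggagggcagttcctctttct
Pirb, chr7:3720459-3720538, reverse strand: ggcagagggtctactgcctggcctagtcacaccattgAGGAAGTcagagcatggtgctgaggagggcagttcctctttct
Trem1, chr17:48232593-48232672, forward strand: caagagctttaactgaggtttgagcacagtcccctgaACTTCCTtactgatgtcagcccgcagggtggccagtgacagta
Vav3, chr3:109340445-109340524, forward strand: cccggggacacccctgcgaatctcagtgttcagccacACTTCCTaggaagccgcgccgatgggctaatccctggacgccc
Slfn1, chr11:83116709-83116788, forward strand: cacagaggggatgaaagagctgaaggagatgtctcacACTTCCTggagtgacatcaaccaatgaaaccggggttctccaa
The windows of Pira2 and Pirb are near copies of each other, like the genes. A match is a description of the sequence; no binding was measured.

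The lost Csf2 copy can be examined a second time by setting Dhet against Csf1r_het, whose libraries enter neither mean of the first comparison but share its estimate of the spread. In that comparison 1 gene, Rps3a2, was called higher (7.89, SE 0.96, limma adjusted p = 0.0236; 0.00756% of those tested) and 0 lower. At an adjusted p under 0.05 edgeR called 2 higher and 0 lower, and DESeq2 37 and 78. At an unadjusted p under 0.05 limma counted 792 higher and 598 lower, edgeR 611 and 584, and DESeq2 752 and 920. Dhet replicate 2 differed from the 10 other libraries in sex-linked transcripts, with 717 normalized counts of the Y-linked Ddx3y against at most 16.3 and 4.02 of Xist against at least 3011. It is 1 of the 2 Dhet libraries on which this comparison and the interaction below rest. Without it limma called 3 higher and 118 lower, with the lone Dhet library taken to vary like the other groups. Of the 107 genes that rose in Csf2_het, 20 lay above 0 here (18.7%, against 54.5% of all genes), with a median of -0.66. Of the 375 that fell, 162 lay below 0 (43.2%, against 45.5% of all genes), with a median of 0.15. The median of all genes was 0.10. The share of 18.7% was 8.43% without WT replicate 2 and 29.4% without Csf2_het replicate 1, over the genes called in each of those fits.

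The difference between these effects, which is the interaction of the genotypes, was called for 244 genes (1.85% of those tested), among them 52 of the 107 and 133 of the 375. Since the genes were chosen as called between libraries that enter the interaction, this share is not independent of that choice. Pygl, 11.3-fold lower in Csf2_het than in WT, held 784, 867 and 1051 normalized counts in Csf1r_het and 2760 and 2262 in Dhet (1.48, SE 0.38; interaction 5.05, limma adjusted p = 0.00136). Among genes that rose in Csf2_het, Bex3 held 2083, 2359 and 2364 in Csf1r_het and 1088 and 991 in Dhet (-1.12, SE 0.31; interaction -2.68, limma adjusted p = 0.00885). In both genes the Dhet libraries lay beyond the Csf1r_het libraries, on the opposite side from that in Csf2_het. The Csf1r_het libraries themselves lay beyond WT in both, on the side of Csf2_het. Summed levels did so too in most of the lists whose sums did not overlap between WT and Csf2_het. Among these were the JAK-STAT, myeloid transcription factor, integrin, C-type lectin and paired receptor lists. The NADPH oxidase, pentose phosphate, actin motor, choroid plexus and cilium, and Bex and Tceal lists were others. Classical monocyte markers held 59625 to 75256 in Csf1r_het (WT 100060 to 272278), and homeostatic genes 1049133 to 1671185 (WT 717933 to 791256). Other lists did not, such as the interferon response and Ms4a lists and glutathione enzymes (172916 to 219075, within WT). A difference of WT from all heterozygous libraries was not tested.

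Genes whose 5 libraries with a lost Csf2 copy lay beyond all 6 others were fewer. All 5 lay above the 6 others in 8 of the 107 that rose (0.492% of all genes tested) and below them in 50 of the 375 that fell (0.809%). The WT and Csf2_het libraries that chose the genes are among the 11. Those that rose included P2ry12, Scoc, Rps3a2 and Rps3a3. Those that fell included Adcy4, Cytip, Ifitm2, Treml4, Itga4, Fcgr4, H2-Ab1, and the 3 Pilr genes. Fcgr4 held 3507, 5358 and 2287 normalized counts in Csf1r_het and 990 and 1061 in Dhet (-1.77, SE 0.34), so that it was lower with the lost copy on both backgrounds, though the second difference did not pass (limma adjusted p = 0.263). P2ry12 held 34191, 43210 and 36606 in Csf1r_het and 50949 and 54485 in Dhet (0.48, SE 0.44). Its groups did not overlap there, and the difference did not pass (limma adjusted p = 0.655).

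**Figure D5:**
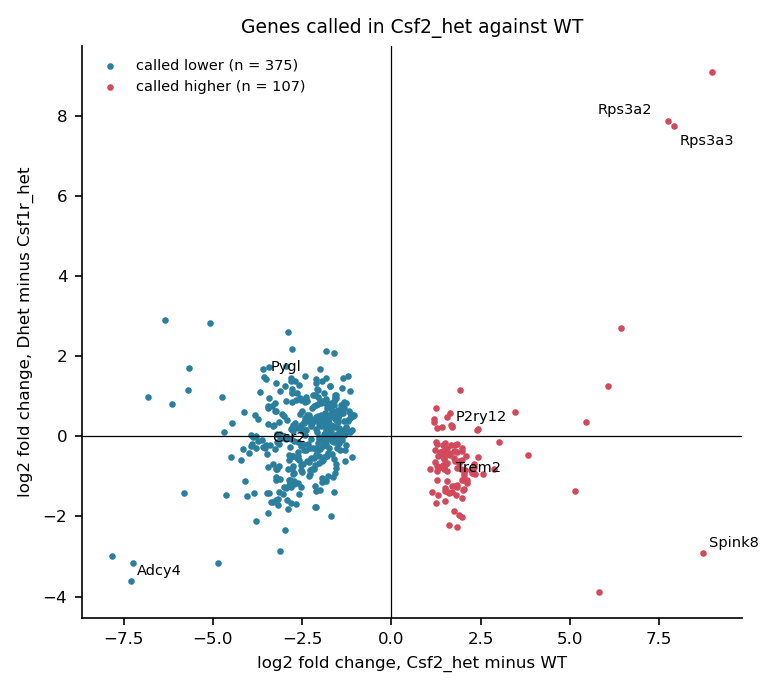
Log2 fold change of each called gene for the lost Csf2 copy on the wild-type background (Csf2_het minus WT) and on the Csf1r+/- background (Dhet minus Csf1r_het), which share no library. Blue points are the 375 genes that fell and red points the 107 that rose in Csf2_het, and 20 of those 107 lie above 0 on the second axis.

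Genes around Csf2 were looked at apart. Csf2 lies on chromosome 11, 54247271 to 54249667, on the reverse strand of mm10 (GENCODE vM21). Within 10 Mb of it 179 genes were tested and 3 were called (1.68%, against 3.65% of all genes), with a median of 0.03. Pdlim4, an actin-binding LIM protein gene (chromosome 11, 54054928 to 54069014), rose from 988, 577 and 823 normalized counts to 2452, 1816 and 2654 (2.90-fold higher, 1.55, SE 0.30, limma adjusted p = 0.0123). Gm2a, the activator of ganglioside breakdown (chromosome 11, 55098115 to 55113029), fell by 1.48 (SE 0.29), and Cyfip2, a subunit of the WAVE complex (chromosome 11, 46193850 to 46312859), by 2.44 (SE 0.46). In Dhet against Csf1r_het all 3 were opposite in sign, with Pdlim4 at -0.67 (SE 0.33), Gm2a at 0.18 and Cyfip2 at 0.35.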

How the data were processed

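RNA of Tmem119+ microglia was sequenced in bulk. The deposited table holds a normalized signal per gene and library, which is a read count divided by a library's size factor; the authors used kallisto 0.43.1, DESeq2 and mm10, per the submitters' processing notes, with no version given for DESeq2. Every value was a whole number of reads times a library's step, within a tolerance of 0.02 reads, so the reads were recovered. Genes with a mean of at least 10 over the 11 libraries were tested with limma 3.58.1 (R 4.3.3) on log2(normalized count + 1), with a mean-variance trend and the 4 genotypes in 1 fit. P-values were adjusted by the Benjamini-Hochberg method over all genes tested and called at 0.05. A fold change on this scale understates the change of low genes, and a fold of means is given beside it. The test was run on simulated data first. With 3 libraries against 3 an exact permutation test of a single value cannot go below p = 0.1, and none is given. Alternatives were edgeR 4.0.16 and DESeq2 1.42.0 on the recovered reads, other pseudocounts, filters, centring, robust variance, the groups compared alone, a replicate block and each library left out.

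Genes were named by rule: the 12 largest rises and falls among called genes, the 8 most abundant called genes each way, up to 6 called and 3 abundant uncalled members of each list, called genes within 10 Mb of Csf2, markers, and called genes at 0 in a group. The members and lists were chosen with earlier results of these data known. Of the genes outside the rule Adgre5, Adgre1, Cytip, the S1pr, Pilr, Bex and Tceal genes, G6pdx, Tkt, Taldo1, Pgd, Pygl, Gyg, Flna, Myo1g, Tspan4, Apoo, Chchd6, Fdx1, Socs1, Socs2, Socs3, Cish, Pim1, Pim2 and Gm28438 were chosen after their values were seen, as were 9 of the gene families. Coordinates are of GENCODE vM21. The genes Xcr1, Mrc1, Pax5, Mog, Aqp4, Rbfox3, Cldn5 and Col1a1, which define other cell types, were not analysed here. Some called genes are not reported here.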

Additional observations from a re-analysis of the deposited data

Results flagged for a closer look

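For 16 genes named here the effect of the lost Csf2 copy differed between the wild-type and the Csf1r+/- background, by the interaction term of the limma fit. They are the 8 called genes in each direction with the lowest interaction p among those the text describes. They were chosen as called between WT and Csf2_het, whose libraries also enter the interaction, and the Csf1r+/- background rests on 2 Dhet libraries. The term also takes in the difference of Csf1r_het from WT. In Pygl and Bex3 that difference lay on the side of Csf2_het, and for the rest it is not given here.

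Of the genes that rose on the wild-type background, Apoo had a log2 effect of 2.07 there and -0.84 on the Csf1r+/- background (interaction -2.91, limma adjusted p = 0.00874). Bex3 had 1.55 and -1.12 (interaction -2.68, limma adjusted p = 0.00885), and Bex2 1.60 and -2.22 (interaction -3.81, limma adjusted p = 0.0105). Chchd10 had 1.5 and -1.62 (interaction -3.12, limma adjusted p = 0.00885). Dynlrb2 had 1.88 and -1.96 (interaction -3.84, limma adjusted p = 0.00988). Gsta4 had 1.97 and -2.02 (interaction -3.99, limma adjusted p = 0.0117). S100a1, a calcium-binding protein gene, had 1.49 and -1.36 (interaction -2.86, limma adjusted p = 0.0193). Hmgcll1 had 5.82 and -3.88 (interaction -9.70, limma adjusted p = 0.0202), with 2 of its groups near 0.

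Of the genes that fell on the wild-type background, Pygl had -3.57 there and 1.48 on the Csf1r+/- background (interaction 5.05, limma adjusted p = 0.00136), and G6pdx -2.77 and 1.08 (interaction 3.86, limma adjusted p = 0.00687). Nfe2 had -2.69 and 1.39 (interaction 4.08, limma adjusted p = 0.00362). Pirb had -3.45 and 0.75 (interaction 4.20, limma adjusted p = 0.00362), and Anxa2 -3.45 and 0.70 (interaction 4.14, limma adjusted p = 0.00687). For Adgre5, at -3.73 and -0.12 (interaction 3.62, limma adjusted p = 0.00687), Cytip, at -3.51 and -0.20 (interaction 3.30, limma adjusted p = 0.00687), and Flna, at -2.81 and 0.17 (interaction 2.99, limma adjusted p = 0.00851), the second effect was near 0. None of the 16 effects on the Csf1r+/- background passed the test by itself.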

How the results depend on the processing

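For Csf2_het against WT, 107 genes were higher and 375 lower. DESeq2 called 398 and 834, the replicate block 39 and 217, the 2 groups alone 37 and 222, and leaving out 1 library in turn 17 to 166 and 146 to 520. Leaving out Csf1r_het replicate 2 and Dhet replicate 2 together, an alternative chosen after seeing the data, called 164 higher. For Dhet against Csf1r_het, with 1 higher and 0 lower, edgeR called 2 higher, DESeq2 37 higher and 78 lower, a pseudocount of 5 gave 3 higher, the replicate block and the groups alone 0 higher, both libraries left out 4 higher and 190 lower, and leaving out 1 library 0 to 3 higher and 0 to 118 lower. For the interaction, with 159 higher and 85 lower, DESeq2 called 560 and 426, the replicate block 12 and 2, both libraries left out 103 and 267, and leaving out 1 library 33 to 474 and 14 to 422. The groups alone give no interaction. The correlations of same-numbered deviations of WT and Csf2_het were 0.0616, -0.167 and -0.214. With 3 libraries per group, and Csf1r_het and Dhet left out, these values cannot show whether replicate numbers mark a batch. Of the 143 genes compared 123 were called. Of these 40 lost their call with the block, 13 with edgeR, 51 with the 2 groups alone and 0 to 63 when 1 library was left out. The log2 fold change of Csf1r turned to 0.0055 when libraries were centred on their median, and was lowest at -0.37 when WT replicate 2 was left out and highest at 0.21 when WT replicate 1 was. That of Cyba was lowest at -1.07 when WT replicate 3 was left out and highest at 0.053 when WT replicate 2 was. Over single libraries left out, 3 more uncalled genes turned: Kl (-0.072 to 1.41), Ly6c1 (-2.62 to 0.11) and mt-Nd3 (-1.26 to 0.54). The cause was not tested. The median of the ribosomal protein list turned from -0.67 to 0.22 without WT replicate 2. The leave-one-out fits share most libraries and are not independent. The 2 Dhet libraries limit the second view of the lost copy.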

Other observations

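Gm28438, a copy of the mitochondrial gene mt-Nd3 identical at 344 of 345 bases, held 5.78, 131 and 11.5 normalized counts in WT and 62327, 14513 and 1608 in Csf2_het (log2 fold change 8.99, SE 1.26, limma adjusted p = 0.00189). It held 14.5, 23.7 and 12.6 in Csf1r_het and 23295 and 3964 in Dhet. All 5 libraries with a lost Csf2 copy lay above the 6 others, and mt-Nd3 itself overlapped between WT and Csf2_het (-0.38, limma adjusted p = 0.887). How reads were split between the copies is uncertain.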
